A study of Sus scrofa with 2 samples.

Results

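Genes of the Wnt pathway were compared between the ovaries of conventional pigs and minipigs: the secreted antagonists SFRP4 and DKK1, the receptor FZD3, the beta-catenin gene CTNNB1, the genes GSK3B and BTRC for the turnover of beta-catenin, and the nuclear factor LEF1. The members were the non-control probes of the array whose transcript accession belongs to one of these genes in the pig RefSeq annotation. They were 7 of the 2459 genes that could be named in this way, and 14 of 43597 probes. All 14 probes were printed once on each array and were well above background on both, so none was lost to the filter on dim probes.

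Wnt ligands bind Frizzled receptors together with LRP5 or LRP6 at the cell surface. Without a ligand, a complex that holds the kinase GSK3B marks beta-catenin with phosphate, the BTRC ubiquitin ligase recognises the mark, and beta-catenin is degraded. With a ligand, beta-catenin accumulates and acts in the nucleus with LEF1 or a related TCF factor. In the ovary this pathway takes part in gonad development and in the growth and steroid synthesis of granulosa cells.

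RNA came from ovarian tissue on day 15 of the estrous cycle, from Midget minipigs for one group and from Yorkshire sows, the conventional pigs, for the other. All animals were females of the same age that had passed several cycles, none carried a transgene or received an agent according to the labels and methods, and the corpora lutea had been cut away from the tissue. Each breed was represented by 1 single-colour Agilent array, and neither the labels nor the methods say whether its RNA came from 1 animal or from several. With 1 array per breed there was no replicate, so no test was run, no difference between the breeds has a check across animals, and the number of arrays limits the precision.

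Levels are the log2 of the background-corrected intensity minus the 75th percentile of the array, so that a level of 0 lies at an intensity of 494 for the minipig and of 513 for the conventional pig. All differences are log2 differences, conventional pig array minus minipig array, and a difference of 1 is a 2-fold change. The breeds are those on the labels of the scanner files. A log2 table deposited with them exchanges the arrays: the values it gives for the minipig are those of the scanner file labelled as conventional pig, shifted by 1 constant to within 7.46e-07 over 5617 probes. Every direction given here is therefore the opposite one under the labels of that table, and the data do not settle which labels are right. Technical error is known in 2 forms. Repeated spots of a probe, over 42 probes, varied with an SD that comes to 0.25 for the difference of single spots, and the error that the scanner software attaches to each spot gave 0.20 to 0.24 for the 14 probes. Both cover the spots and not the animals.

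SFRP4 stood apart from the other genes of the group, at 26.2-fold more signal on the minipig array. None of the other 6 genes reached 2-fold. Of the 14 probes, 0 were past 2-fold toward the conventional pig and 1 was past 2-fold toward the minipig, against 7.43% and 7.93% of all probes that were, like these, well above background on both arrays. Past 1.5-fold in either direction were 3 of the 14, 2 of them toward the conventional pig, and 35.4% of all probes. Past 1.3-fold were 5, 4 of them toward the conventional pig, and 53.6% of all probes. The median absolute difference was 0.25 over the 14 probes and 0.41 over the 36659 probes detected, that is well above background, on both arrays. The genes were put together with earlier results of these arrays known, so these counts describe the 7 genes and carry no test.

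**Figure D1:**
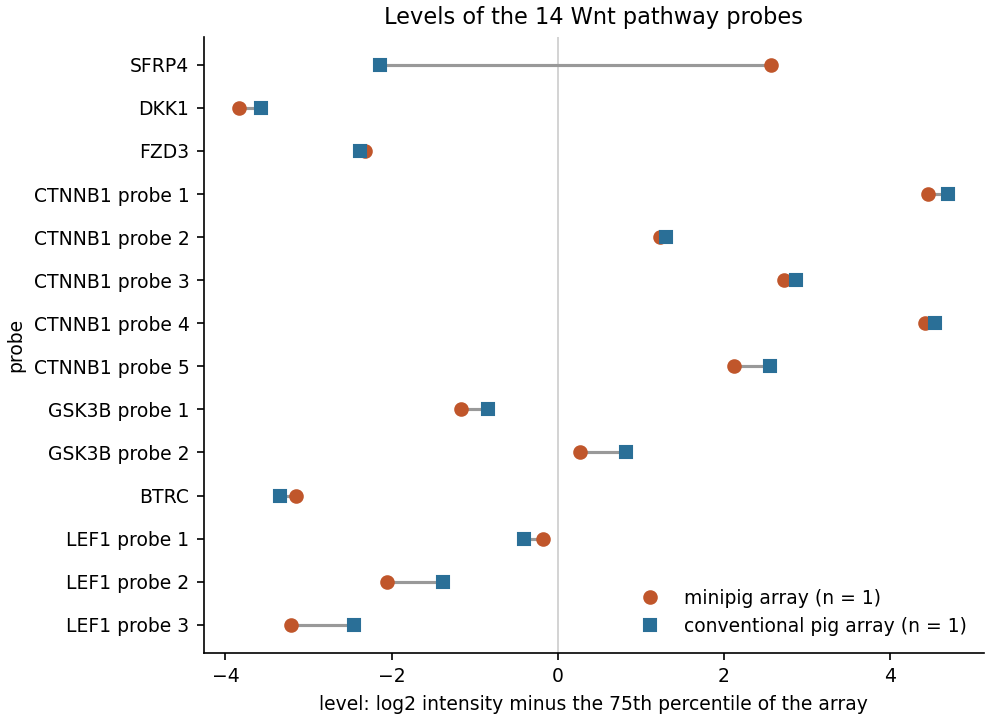
Level of each of the 14 probes, in log2 intensity minus the 75th percentile of the array, in the minipig (circles) and the conventional pig (squares), with 1 array per breed and no error bars; probes of a gene are numbered in the order of their IDs. The symbols of SFRP4 lie far apart, at 2.57 and -2.14, while those of FZD3 and of most CTNNB1 probes nearly touch.

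SFRP4 encodes a secreted Frizzled-related protein, which binds Wnt ligands outside the cell and keeps them from their receptors. Its single probe, A_72_P289989, gave an intensity of 2938 ± 294 (scanner software error, 1 spot) on the minipig array, against 116 ± 11.9 on the conventional pig array. The corresponding levels were 2.57 and -2.14, above the 75th percentile on the minipig array and below it on the other. The log2 difference was -4.71 ± 0.21 (software error), or 18.5 times the SD of the difference of single spots. Before any correction the spot had a median signal of 3105 on the minipig array, against 160 on the conventional pig array, over a local background of 23.0 on both. The dimmer of the 2 spots was still 10.1 times as bright as the lowest intensity well above background on its array.

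A difference as low as that of SFRP4 or lower was found for 4 probes of the 36659 detected on both arrays, SFRP4 included. With all probes detected on both arrays there were 2225 named genes, and by the median over the probes of a gene SFRP4 had rank 1 among them on the minipig side. The median difference of the 23 probes within 2 rows and 2 columns of its spot was -0.42, and that of all probes was -0.12. The value of SFRP4 rests on 1 spot per array and on 1 probe, and no second probe could be named to check it.

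The named genes with the most similar difference outside the group were SAL1 (-4.58), a salivary lipocalin that carries small molecules, IGFBP2 (-4.31), an IGF-binding protein, and CYP19A2 (-4.22), one of the aromatase genes of the pig. The likeness is the distance between log2 differences, which was 0.13, 0.40 and 0.50, respectively, over 2 arrays. SAL1 had 2 probes, at -4.83 and -4.33, and the first of these was lower than the probe of SFRP4. The probe of CYP19A2 may also bind the transcripts of the other aromatase genes, which was not tested. CYP19A1, another aromatase gene, had 2 probes at -0.34 and 0.52, with a median of 0.09.

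DKK1 encodes a secreted antagonist that acts on the co-receptor LRP6 and not on the ligand. Its single probe, A_72_P440836, gave an intensity of 34.7 ± 4.17 on the minipig array, against 43.0 ± 5.04 on the conventional pig array. The log2 difference was 0.26 ± 0.24 (software error), about as large as the SD of the difference of single spots. The probe was dim, at 3.27 and 3.73 times the lowest intensity that counts as well above background there. The 2 antagonists thus had differences of opposite sign, that of DKK1 being 1.01 times the SD of the difference of single spots.

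Another gene of the antagonist class, DKK3, was on the array and is named here because it was past 2-fold. It belongs to the Dickkopf family, although its action on Wnt signaling is less settled than that of DKK1. Its 3 probes gave differences of 2.20, 2.20 and 2.34, with a median of 2.20, or 4.59-fold more signal on the conventional pig array. SFRP4 and DKK3 were therefore past 2-fold in opposite directions, and DKK1 lay between them. The other 13 genes of the list of secreted antagonists had no named probe and were not analysed here.

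**Figure D2:**
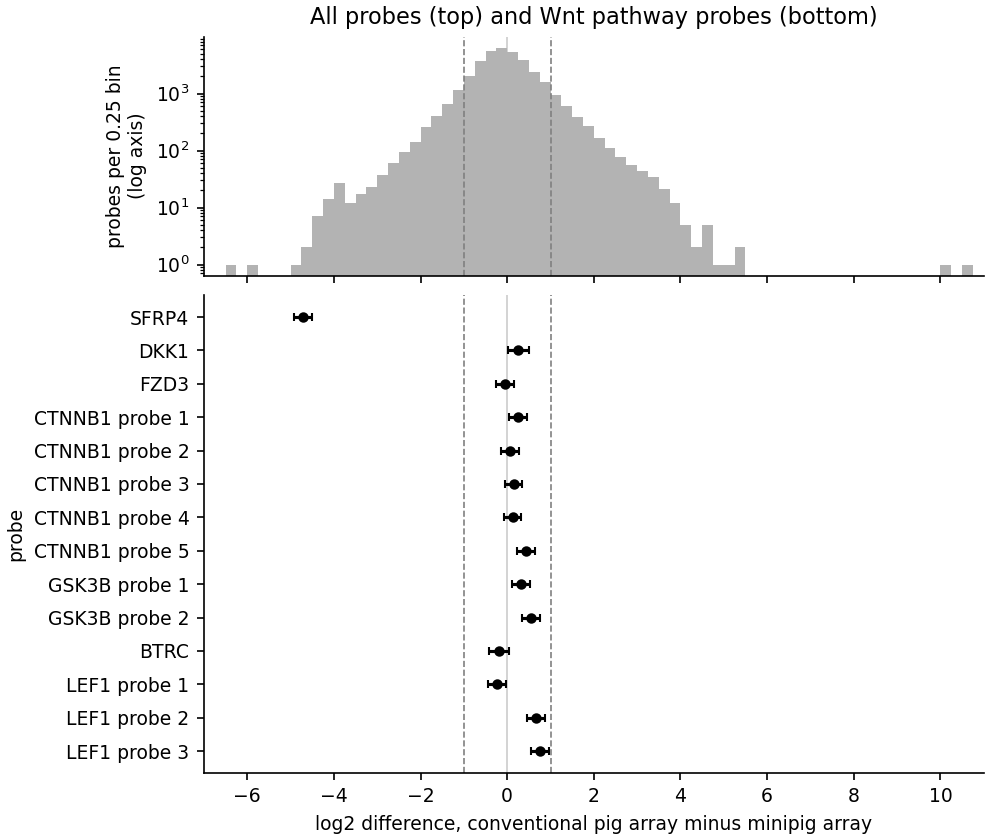
Top, histogram of log2 differences (conventional pig array minus minipig array) of all 36659 probes detected on both arrays, with the number of probes on a log axis. Bottom, differences of the 14 Wnt pathway probes with the scanner software error as bars, and dashed lines at 2-fold; SFRP4 lies at -4.71 in the sparse left tail and the other 13 probes lie between -0.23 and 0.76.

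FZD3 encodes one of the Frizzled receptors and was the only gene of the receptor list with a named probe. The intensity of its probe, A_72_P509756, was 98.6 ± 10.1 on the minipig array, against 98.3 ± 10.2 on the conventional pig array. The log2 difference was -0.06 ± 0.21, smaller than the error of either kind, and a smaller absolute difference was found for 7.71% of all probes detected on both arrays. Median centring, quantile and loess normalization gave it a positive sign. No gene of the Wnt ligand list and none of the list of R-spondins and their receptors had a named probe, so the ligand side of the pathway was not analysed here.

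CTNNB1 encodes beta-catenin, which carries the signal to the nucleus and also links cadherins to the cytoskeleton at cell contacts. It was measured by 5 probes, more than any other gene of the group. Probe A_72_P035751 gave 10902 on the minipig array, against 13380 on the conventional pig array, a log2 difference of 0.24. Probe A_72_P575864 gave 10582 and 11966, a difference of 0.12. Probe A_72_P569999 gave 3263 and 3752, a difference of 0.15. These 3 probes were slightly brighter on the conventional pig array, each by less than the SD of the difference of single spots. Probe A_72_P538553 gave 1162 and 1266, a difference of 0.07, and was also within that SD. Probe A_72_P586606 gave 2151 and 3018, a difference of 0.44, and was the only CTNNB1 probe beyond it.

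The median over the CTNNB1 probes was 0.15, or 1.11-fold, and the SD between the 5 probes was 0.14. All 5 were higher on the conventional pig array, but the probes share the same 2 hybridised samples and are not replicates. The direction depended on the scaling, since quantile normalization gave a median of -0.11 and loess normalization one of -0.03. The CTNNB1 median was thus smaller than either technical error of a single spot. The error of a median over 5 probes was not estimated, and the median has no check across animals.

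GSK3B encodes the kinase that phosphorylates beta-catenin in the destruction complex and that also acts in insulin signaling. Probe A_72_P611953 gave an intensity of 597 ± 59.8 on the minipig array, against 905 ± 90.6 on the conventional pig array, a log2 difference of 0.55. Probe A_72_P327618 gave 221 ± 22.3 and 287 ± 28.8, a difference of 0.32. Both probes were brighter on the conventional pig array, by 2.15 and 1.28 times the SD of the difference of single spots. The median was 0.44, or 1.35-fold. It kept its sign under the 8 alternatives that use the scanner files, with values from 0.43 to 0.59.

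BTRC encodes the F-box protein that recognises phosphorylated beta-catenin and brings it to a ubiquitin ligase. Its single probe, A_72_P105646, was dim, with an intensity of 55.5 ± 6.0 on the minipig array, against 50.7 ± 5.67 on the conventional pig array. The log2 difference was -0.18 ± 0.22, smaller than either error. Its sign turned under quantile normalization, to 0.04, and under loess normalization, to 0.03. The gene has a close paralog, FBXW11, and whether the probe also binds its transcripts was not tested.

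LEF1 encodes a DNA-binding partner of beta-catenin at Wnt target genes. Probe A_72_P630053 gave an intensity of 53.4 ± 5.77 on the minipig array, against 93.7 ± 9.70 on the conventional pig array, a log2 difference of 0.76. Probe A_72_P444744 gave 119 ± 12.2 and 197 ± 19.8, a difference of 0.67. Both were brighter on the conventional pig array, by 2.98 and 2.65 times the SD of the difference of single spots. Probe A_72_P110096 went the other way, with 439 ± 44.0 and 387 ± 38.8, a difference of -0.23 that lay within that SD.

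The median difference of the 3 LEF1 probes was 0.67, or 1.59-fold, the furthest of the group toward the conventional pig. The probes spanned 0.99 on the log2 scale, more than those of CTNNB1 (0.36) or GSK3B (0.22). All 3 carry the same transcript accession, and their positions along the transcript were not used here. Taking only the probe with the highest mean level gave -0.23, so the direction of LEF1 rests on the choice of probes. Normexp background correction, an alternative correction for local background, lowered the median to 0.42.

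The rest of the pathway was read from a list of 158 Wnt genes, of which 28 had a value, the 7 genes above among them. A list measured for 17.7% of its genes does not stand for the pathway. The 21 genes other than the 7 had a median log2 difference of -0.13, with 9 higher in the conventional pig and 12 in the minipig. Over all 2363 named genes with a value, the median was 0.04 and 47.5% were higher in the minipig. The median of all 28 was -0.03 and has no settled sign, since it was 0.12 after median centring and 0.01 after normexp correction. Past 2-fold were 1 of the 21 toward the conventional pig and 2 toward the minipig, where 11.7% and 7.96% of all named genes were. Of 15 of these genes with several probes, 12 had all probes on the same side of 0, which is 80.0%, against 71.7% of the 1264 named genes with several probes.

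Of the nuclear factors, 6 of 18 had a value, with a median of -0.41. TLE4, a Groucho-type corepressor that binds LEF1 and TCF factors, gave less signal on the conventional pig array with all 4 of its probes, with differences from -1.71 to -1.19 and a median of -1.47. TCF7L2, a relative of LEF1 that was singled out after its values were seen, had differences of -1.01, -0.99 and 0.09. The probes of TLE4 and TCF7L2 thus lay mostly on the minipig side. Of the 3 probes of LEF1, 2 lay on the conventional pig side and the brightest, at -0.23, on the minipig side.

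Of the genes for the turnover of beta-catenin, 5 of 30 had a value, CTNNB1, GSK3B and BTRC among them. They ran from -0.18 (BTRC) to 0.44 (GSK3B), and none was past 1.5-fold. Of the target genes of the pathway, 5 of 8 had a value, with a median of -0.37. The minipig was higher for 4 of them and the conventional pig for 1, while 47.5% of all named genes were higher in the minipig. Only JUN among the 4 was past 1.5-fold. JUN, which encodes a subunit of the AP-1 transcription factor and responds to many signals besides Wnt, was at -3.76 from 1 probe. CCND3, a D-type cyclin, had the highest difference of these target genes, toward the conventional pig, at 0.80, with its 2 probes at 0.40 and 1.20. The 8 genes of other Wnt branches ran from -0.23 to 0.64, and none was past 2-fold.

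**Figure D3:**
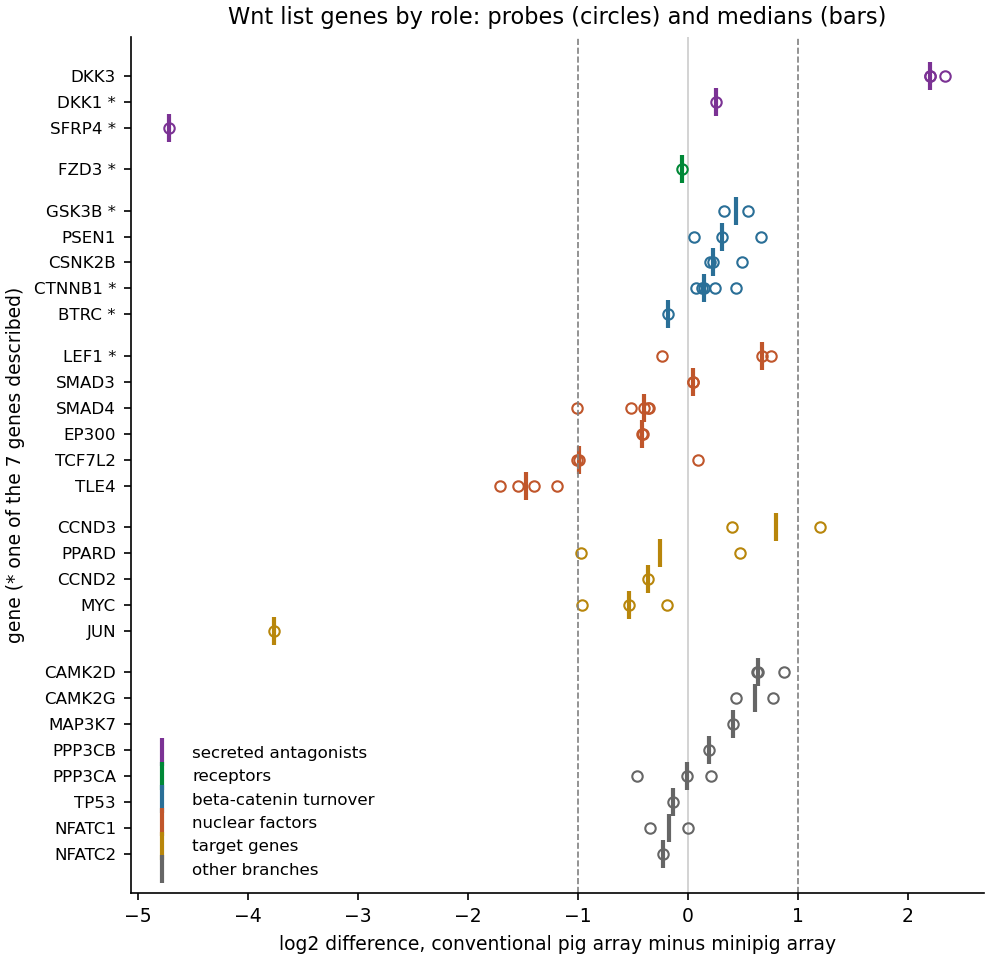
log2 differences (conventional pig array minus minipig array) of the 28 Wnt list genes with a value, grouped by role; circles are single probes, vertical bars are medians over the probes of a gene, dashed lines mark 2-fold and asterisks mark the 7 genes described in full. SFRP4, JUN and TLE4 lie past 2-fold on the minipig side and DKK3 on the conventional pig side.

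The tissue was checked with lists of cell type markers. Granulosa markers were present, with 7 of 12 genes valued. Past 2-fold toward the minipig were 5 of these, among them FSHR (-3.63) and INHA (-2.61), against 7.96% of all named genes. Of the same 5, INHBA had its 2 probes at -3.91 and 0.37, and the 4 probes of AMH ran from -2.22 to -0.09. The other genes, FST (-0.08) and CYP19A1 (0.09), were near 0. The summed intensity of the granulosa markers, relative to the 75th percentile, was 40.9 for the minipig and 18.0 for the conventional pig. Oocyte markers had 8 of 12 genes valued, all higher on the minipig array by the median of their probes, with sums of 15.2 and 4.54. KIT, at levels of 3.48 and 1.44, was the brightest of them on both arrays and weighs most in these sums. Their differences ran from -2.04 for KIT to -0.18 for BMP15, and 4 were past 2-fold, against the same 7.96% of all named genes. The 2 probes of ZP2 lay at -1.96 and 0.46, and the 2 of BMP15 at -0.42 and 0.05. Luteal markers were well above background in this tissue, from which the corpora lutea had been removed, with 11 of 12 genes valued. Toward the conventional pig 6 were past 2-fold, against 11.7% of all named genes. The other way went 2 of the 11, LHCGR (-0.62) and PRLR (-0.55). The sum of the luteal markers was 57.7 for the minipig and 276 for the conventional pig. STAR, at a level of 7.19, was the brightest of them on the conventional pig array and weighs most in the sum there. Which cells gave the signal of the luteal markers was not tested.

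Of the 6 theca markers, all had a value, from -3.76 for INSL3 to 3.11 for HSD3B1, and their sums were 106.6 and 212. The theca and luteal lists share LHCGR, CYP11A1, STAR and HSD3B1, so their sums are not separate measures of these cells. Of the theca genes outside the luteal list, INSL3 and CYP17A1 (-1.74) were past 2-fold toward the minipig. Markers of endothelium, with 4 of 8 genes valued, had sums of 3.75 and 5.86. Markers of smooth muscle, with 5 of 8, had sums of 94.7 and 96.1, but 2 of the 5, DES (-2.0) and CNN1 (-1.32), were past 2-fold toward the minipig. The single stroma marker with a value, DCN, gave 46.9 and 35.6. Immune markers, with 4 of 9 genes valued, had sums of 2.73 and 2.83, and their only gene not well above background on either array was CD4. Surface epithelium markers, with 3 of 7, had sums of 0.87 and 0.74. The summed granulosa and oocyte signals were thus higher on the same array as SFRP4, and the summed luteal signal on the same array as DKK3. The theca genes lay on both sides, with 3 higher on each array. The part of these cell types in the differences of the Wnt genes was not tested. In a tissue sample fewer cells of a type and less RNA per cell cannot be told apart.

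**Figure D4:**
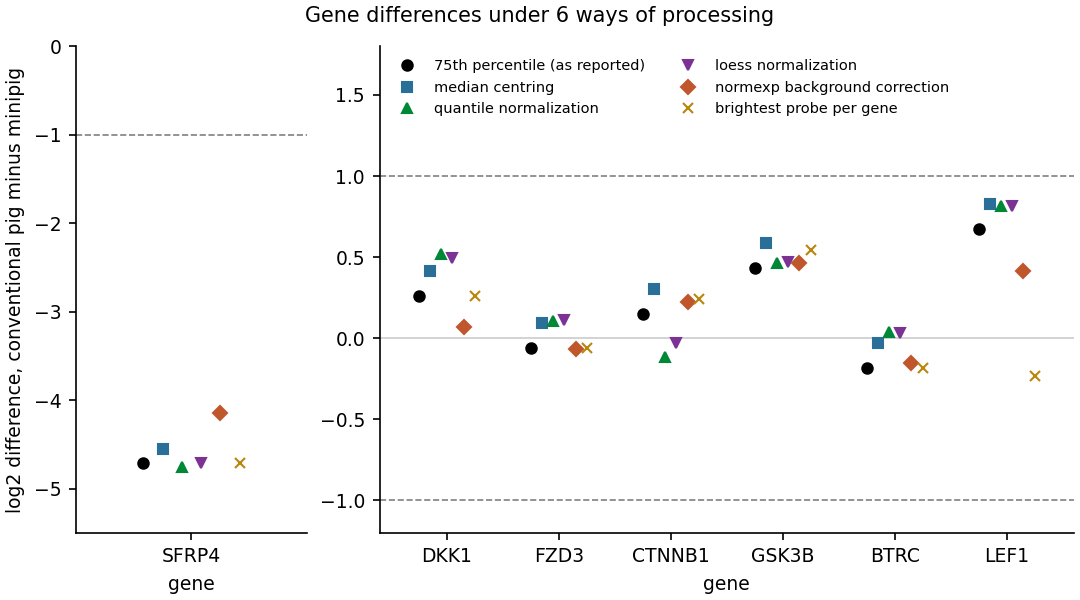
log2 difference (conventional pig array minus minipig array) of each of the 7 genes under 6 ways of processing the scanner files, with dashed lines at 2-fold and separate vertical scales for SFRP4 (left) and the other genes (right). SFRP4 stays between -4.76 and -4.15, DKK1 and GSK3B stay above 0, and CTNNB1, FZD3, BTRC and LEF1 have points on both sides of 0.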

How the data were processed

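Total RNA of ovarian tissue without corpora lutea was labelled with Cy3 and hybridised to a porcine Agilent array, 1 array per breed. Per the file headers, the authors deposited the output of Feature Extraction 10.7.3.1. Its processed intensity was background-subtracted and detrended within the array, with no scaling from array to array. A second deposited file gives log2 values of 5617 probes, with the breeds exchanged relative to the scanner files. All of these are past 2-fold between its columns. The study's methods name GeneSpring for normalization and clustering, without naming this table.

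Control spots and outlier spots (5 and 10) were left out, no spot was saturated, and repeated spots were averaged on the log2 scale. The share of probes well above background was 88.1% for the minipig and 85.2% for the conventional pig. The 75th percentile of each array was subtracted. A probe well above background on 1 array only entered the medians and counts over all named genes, and the median over all probes, as a bound, while the shares of probes past a fold rest on probes well above background on both arrays. Probes were named by their accessions, less the version, from RefSeq's Sscrofa11.1 gene table, which named 5577 of them and gave no coordinates used here. Probes of a gene were summarised by their median. Gene lists were written by hand; the 7 genes and the lists were chosen with earlier results of these data known. Besides the 7, genes of the Wnt list were named when past 2-fold or among the 2 with the furthest differences toward each array. The 3 genes closest to SFRP4 were added, markers were given as examples of their lists, and TCF7L2 was added after its values were seen.

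The alternatives were normexp background correction (offset 50), median centring, quantile and loess (span 0.3) normalization, no filter on dim probes, probes well above background on both arrays, outlier spots kept, the brightest probe per gene, and the deposited table. Normexp used median spot signals. Normexp was run in limma 3.58.1 under R 4.3.3, and all else in Python 3.11.15 with matplotlib 3.10.9, statsmodels 0.14.6, pandas 2.3.3 and numpy 2.4.6. The steps were tested on simulated data.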

Additional observations from a re-analysis of the deposited data

How the results depend on the processing

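Median centring, quantile and loess normalization moved the median difference of all probes by 0.15, 0.11 and 0.11 toward the conventional pig array. The log2 difference of SFRP4 was -4.15 under normexp correction and 4.71 in the deposited table, whose labels exchange the breeds. Under quantile normalization DKK1 was at 0.52 and CTNNB1 at -0.11. Normexp correction put DKK1 at 0.07. LEF1 was at 0.42 under normexp correction and at -0.23 with the brightest probe. By the labels of the deposited table, 1 member probe was at least 2-fold higher in the pig and 0 in the minipig, as were 5 and 2 genes of the Wnt list, against 1 and 3 by the scanner labels. Since no probe under 2-fold is in that table, SMAD4, TCF7L2 and CCND3 enter it with 1 probe each. The other moves of the 7 genes were within the SD of the difference of single spots, 0.25, which is larger than the values of FZD3, CTNNB1 and BTRC themselves: FZD3 changed sign under 3 alternatives, CTNNB1 and BTRC under 2 each and LEF1 under 1, of 8 that use the scanner files. Apart from the deposited table, no alternative changed the number of member probes past 2-fold. Except for the exchange of labels, the cause of these moves was not tested. No paired analysis was possible because each breed has 1 array and the labels carry no replicate numbers. Signal over background limits DKK1, BTRC and the dimmest LEF1 probe most.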
